A study of Mus musculus with 4 samples.

Results

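Remote intergenic islands of H3K4 signal are stretches of enriched reads that lie far from any annotated gene start and outside the protein-coding genes. They were defined by pooling the reads of both H3K4 ChIP-seq libraries of the study, 1 from PA1-KO and 1 from PA1-WT mouse B cells, and joining 200 bp windows with 9 or more reads across gaps of up to 200 bp. Islands with 20 or more reads were kept, and those over 50 kb from the nearest transcription start site (TSS) of any GENCODE vM1 gene, with a midpoint outside every protein-coding gene, were taken. They number 1024 of 24957 islands (4.10%). Pooled read density and position therefore chose the islands, while the division of their reads between knockout and wild type did not enter the choice.

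The study compared histone modification in activated B cells with and without PA1, in connection with switching of the immunoglobulin class. Both groups were splenic B cells from mice aged 6 to 14 weeks, obtained by CD43 depletion. They were stimulated in culture for 2 days with LPS (25 µg/ml) and either anti-IgD-dextran (2.5 ng/ml) or IL-4 (5 ng/ml). The labels give the genotypes only as PA1-KO and PA1-WT. They do not say how the gene was deleted, which stimulus these libraries received, or which methylation state of H3K4 the antibody recognised, and native chromatin cut with MNase was precipitated with no input library used here. Of the 4 samples, 2 were analysed, and the other 2 were not analysed here.

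Methylation of lysine 4 on histone H3 marks active and primed regulatory DNA. Trimethylation is concentrated at promoters, and monomethylation is spread over enhancers, which are switches that act on a promoter from a distance and often lie in gene-poor sequence. MLL3 and MLL4 are the methyltransferases known for enhancer H3K4 methylation, and PA1 joins PTIP in the complex that holds them.

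The libraries held 5259995 nuclear reads from PA1-KO cells and 5539475 from WT cells. Each genotype is represented by 1 library, so no replicate spread is available and nothing was tested between genotypes. Each ratio below is knockout over wild type after scaling over promoters with the TMM method (trimmed mean of M values), and its 95% interval is an exact conditional binomial one that covers counting error only. An island is called higher or lower when its ratio is at least 1.5-fold away from 1 and its interval excludes 1. The promoter of PA1 itself (2900092E17Rik) held 114 reads in the PA1-KO library and 261 in the WT library, a ratio of 0.498 (0.396 to 0.624). Since the deleted part of the gene is not given, this value does not check the genotype labels. The promoters of 5 B cell marker genes (Cd79a, Cd79b, Ms4a1, Pax5 and Cd22) held 376 to 570 PA1-KO reads and 385 to 585 WT reads, whereas those of 5 T cell genes held 0 to 2 PA1-KO reads and 0 to 3 WT reads. Of 4 myeloid genes, Itgam had 35 PA1-KO and 27 WT reads and the rest at most 3.

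The sequences of 7 islands that the results turn on are printed here, because they carry the most reads, differ most between the libraries or lie beside a B cell gene. Each is the 300 bases around the position with the most reads, from the plus strand of NCBIM37 (mm9), 5′ to 3′, with every CpG dinucleotide in capitals, since the ratio between the libraries moved with base composition. The windows lie at chr15:67007740-67008039 (RI831), chr10:43463148-43463447 (RI529), chr11:24156860-24157159 (RI598), chr1:156667742-156668041 (RI44), chr8:70682151-70682450 (RI407), chr1:156730849-156731148 (RI49) and chr3:52002640-52002939 (RI140).
RI831, upstream of St3gal1, most reads of all: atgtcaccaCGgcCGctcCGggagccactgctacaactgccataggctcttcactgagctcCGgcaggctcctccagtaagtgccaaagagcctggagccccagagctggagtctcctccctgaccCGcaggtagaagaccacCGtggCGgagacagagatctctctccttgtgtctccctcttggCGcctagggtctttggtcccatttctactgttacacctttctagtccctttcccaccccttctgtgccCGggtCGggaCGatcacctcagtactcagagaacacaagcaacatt
RI529, upstream of Gm9034, the widest island: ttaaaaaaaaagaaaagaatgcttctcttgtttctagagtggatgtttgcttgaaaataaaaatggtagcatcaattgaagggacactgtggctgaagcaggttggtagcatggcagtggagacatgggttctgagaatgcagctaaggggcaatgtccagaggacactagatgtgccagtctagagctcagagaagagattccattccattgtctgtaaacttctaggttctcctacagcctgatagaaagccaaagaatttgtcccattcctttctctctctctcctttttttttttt
RI598, downstream of the start of Bcl11a: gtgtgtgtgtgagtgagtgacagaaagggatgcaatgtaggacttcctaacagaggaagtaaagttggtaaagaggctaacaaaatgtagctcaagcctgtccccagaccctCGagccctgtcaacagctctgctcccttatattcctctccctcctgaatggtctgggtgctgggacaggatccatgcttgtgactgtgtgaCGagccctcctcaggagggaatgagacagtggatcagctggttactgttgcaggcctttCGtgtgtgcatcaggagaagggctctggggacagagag
RI44, upstream of Cacna1e: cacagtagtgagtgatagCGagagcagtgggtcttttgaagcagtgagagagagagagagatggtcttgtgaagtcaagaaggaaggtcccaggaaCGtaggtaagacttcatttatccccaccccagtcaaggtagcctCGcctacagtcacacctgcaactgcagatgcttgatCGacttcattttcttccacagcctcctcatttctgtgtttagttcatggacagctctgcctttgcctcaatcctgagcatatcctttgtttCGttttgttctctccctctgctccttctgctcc
RI407, upstream of Psd3, the highest ratio: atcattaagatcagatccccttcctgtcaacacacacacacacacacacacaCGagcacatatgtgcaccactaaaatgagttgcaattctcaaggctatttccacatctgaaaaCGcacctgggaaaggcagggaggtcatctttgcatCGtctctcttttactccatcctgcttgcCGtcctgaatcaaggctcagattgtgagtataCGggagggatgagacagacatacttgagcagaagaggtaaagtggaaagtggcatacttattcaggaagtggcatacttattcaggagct
RI49, upstream of Cacna1e, lower in PA1-KO: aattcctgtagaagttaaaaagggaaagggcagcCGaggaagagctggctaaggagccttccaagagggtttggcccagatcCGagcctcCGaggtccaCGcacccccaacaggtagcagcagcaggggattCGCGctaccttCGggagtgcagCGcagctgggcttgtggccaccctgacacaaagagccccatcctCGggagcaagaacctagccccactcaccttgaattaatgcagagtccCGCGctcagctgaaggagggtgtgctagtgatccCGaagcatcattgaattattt
RI140, upstream of Foxo1: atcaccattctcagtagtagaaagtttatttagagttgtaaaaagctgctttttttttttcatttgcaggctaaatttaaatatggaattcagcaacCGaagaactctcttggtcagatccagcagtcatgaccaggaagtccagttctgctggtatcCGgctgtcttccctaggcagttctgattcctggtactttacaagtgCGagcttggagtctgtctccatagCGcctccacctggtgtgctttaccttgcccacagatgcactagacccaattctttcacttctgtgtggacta

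The windows differ in composition. RI831 has 11 CpG and 58.0% GC, and RI49 has 12 CpG and 56.7% GC, while RI529 has 0 CpG and 41.0% GC and a run of T at its 3′ end. RI407 has 5 CpG in 45.7% GC and a CA repeat near its 5′ end. Over all members the median window held 6 CpG (quartiles 4 to 9), against 12 in promoter islands and 8 over all islands. The 62 members called higher in PA1-KO had a median of 4.5 CpG per window, and the 44 called lower had 10.

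Within these windows, RI407 held 22 PA1-KO and 5 WT reads and RI49 held 31 PA1-KO and 75 WT reads. RI831 held 95 PA1-KO and 119 WT reads, RI598 held 79 and 88, and RI140 held 58 and 57. RI529 held 80 PA1-KO and 57 WT reads, and RI44 held 82 and 64. RI407 and RI49 were chosen for their ratios, so their window values only describe the printed bases. Short motifs were searched on both strands of the same 300-base windows in every island. RI598, beside Bcl11a, carries AGAGGAAGT, the PU.1-type ETS motif, at base 52 and CAGCTG, an E-box of the kind E2A recognises, at base 238. RI407 carries TGAATCA, a match to the AP-1 motif TGANTCA, at base 184. RI49 carries CAGCTG at bases 157 and 252, and the other printed windows hold none of the longer motifs searched.

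For most motifs, shares in remote islands were nearer to those of intergenic islands at 5 to 50 kb than to those of promoter islands. The exceptions were CCGGAAG, AGGGGGCGC and the NF-kB motif. The IRF motif was present in 11.8% of remote windows, 10.7% of windows of intergenic islands at 5 to 50 kb and 4.40% of promoter windows, with 7.13% over all islands. The RUNX motif TGTGGTT was present in 9.38%, 8.43%, 4.68% and 6.88% of the same groups. The octamer ATTTGCAT, bound by OCT factors, was present in 3.03%, 2.96%, 1.10% and 1.82%, and AGAGGAAGT in 2.44%, 1.90%, 0.836% and 1.46%. TGANTCA was present in 8.98% of remote and 5.27% of promoter windows (7.23% over all islands), and CAGCTG in 22.1% and 15.8% (17.7%). The GC-rich ETS motif CCGGAAG showed no such gap, with 5.27% of remote and 5.75% of promoter windows (4.96%), nor did the NF-kB motif, with 1.66% and 1.48% (1.70%). In intergenic islands at 5 to 50 kb these 2 motifs were present in 4.58% and 2.22% of windows. AGGGGGCGC and CCCTC, which are parts of the CTCF motif, were present in 0.488% and 60.1% of remote windows and in 0.730% and 68.7% of promoter windows (0.641% and 64.8% over all islands). At 5 to 50 kb they were present in 0.786% and 63.1%. CCCTC can lie within the longer motifs. A match is a description of letters and not a binding site, and promoter windows are richer in GC, whose part in these shares was not tested.

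Remote islands were sparse for the sequence they occupy. Sequence that meets the position rule covers 728 Mb, or 28.5% of 2559 Mb, and held 1.41 islands per Mb, against 5.55 per Mb in intergenic sequence 5 to 50 kb from a TSS. The median distance to a TSS was 81.2 kb (quartiles 61.5 to 125 kb). The islands at 50 to 75 kb numbered 450, those at 75 to 100 kb 190, those at 100 to 200 kb 284, and those beyond 200 kb 100. At the threshold, the nearest island inside lay 50035 bp from a TSS (16 PA1-KO and 21 WT reads) and the nearest outside at 49996 bp (77 PA1-KO and 101 WT reads). At the read threshold, 20 members held 20 reads and 18 stretches just outside held 19.

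**Figure D1:**
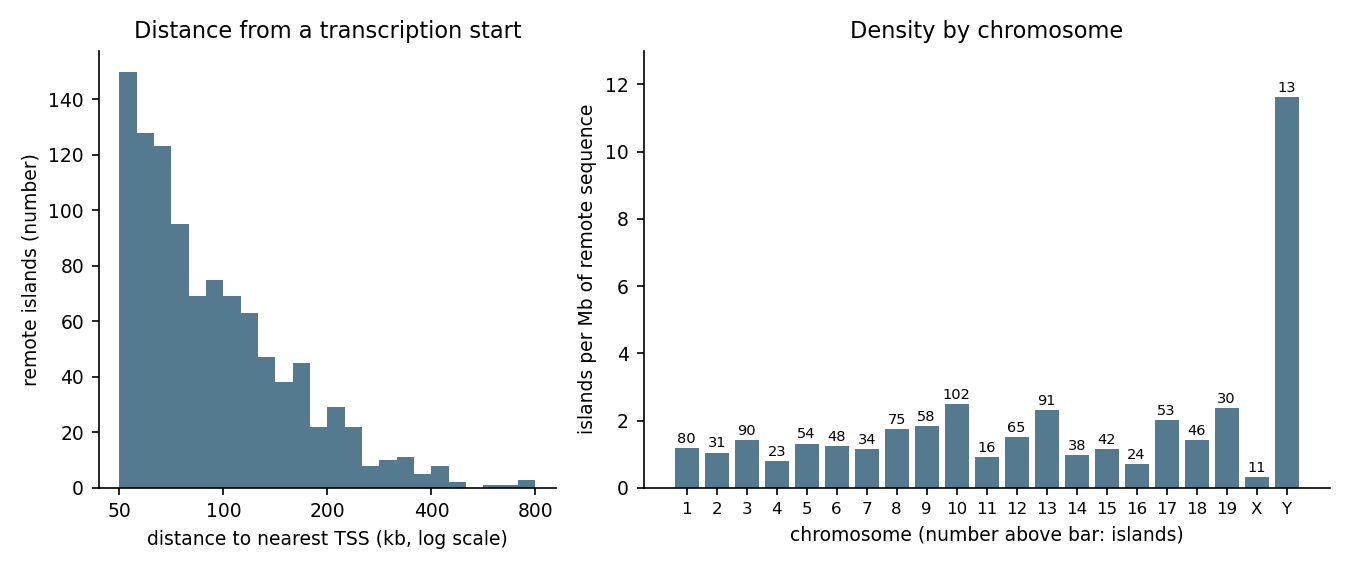
Left, number of remote islands by distance to the nearest TSS (kb, log scale). Right, remote islands per Mb of sequence that meets the position rule on each chromosome, with the number of islands above each bar. Most islands lie within 200 kb of a TSS, chromosome 10 has 102 islands (2.50 per Mb), chromosome X has 11 (0.330 per Mb), and the 13 on chromosome Y stand at 11.6 per Mb.

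Chromosomes were not equally populated. Chromosome 10 held 102 islands (2.50 per Mb), chromosome 13 held 91 (2.31 per Mb) and chromosome 19 held 30 (2.36 per Mb). Chromosome X held 11 (0.330 per Mb), and its intergenic islands at 5 to 50 kb were also sparse, with 1.07 per Mb. Chromosome Y held 13 in 1.12 Mb. In all 13 of these over 20% of reads mismatched the reference (median 51.4%), whereas the median member had 6.74% mismatched reads. In all, 36 members (3.52%) passed that mismatch share, and whether such reads belong where they were placed was not tested.

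The farthest island from any TSS, RI161 on chromosome 3, lay 757 kb from the lincRNA gene Gm6634 and 1403 kb from Sis, which encodes the intestinal enzyme sucrase-isomaltase. It held 22 PA1-KO and 28 WT reads (ratio 0.897, 0.489 to 1.63). RI342, 722 kb from Agbl1, held 21 PA1-KO and 27 WT reads (0.888, 0.477 to 1.63). RI667, 1033 kb upstream of Sel1l, an adaptor of protein degradation from the endoplasmic reticulum, held 15 PA1-KO and 21 WT reads (0.815, 0.391 to 1.66). All 3 are weak islands, and their intervals include 1.

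The stretch between the protein-coding genes that flank a remote island had a median length of 310 kb, exceeded 1 Mb for 126 islands and reached 4.28 Mb. The nearest TSS was that of a protein-coding gene for 692 islands (67.6%), and 16 islands lay inside a noncoding gene. The islands had 595 different nearest protein-coding genes, and lay upstream of that gene's start 567 times and downstream 457 times. Promoters of these genes carried 50 or more reads in 420 of 595 cases (70.6%), against 54.5% of all promoters. The stretches flanking the islands named here and below were looked up in the later RefSeq annotation of GRCm38.p6, by gene order alone. Of 54 stretches, 52 could be matched, 45 of them hold annotated lncRNA genes, and 3 hold a protein-coding gene. Ifngas1, an antisense lncRNA beside the interferon gamma gene, is among these, in the stretch that holds RI581 and RI582.

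As enriched regions, remote islands resembled the other distal islands in size and were weaker than promoter islands. They held a median of 56 reads in both libraries together (quartiles 34 to 110, highest 2547) over a median width of 600 bp (200 to 10000 bp), against 407 reads and 1800 bp in promoter islands and 68 reads and 600 bp in intergenic islands at 5 to 50 kb. Reads in them made up 0.933% of the PA1-KO library and 0.949% of the WT library. The 10 strongest members held 10081 of the 101628 reads. Their GC content was 48.0% and their observed over expected CpG ratio 0.318 (medians), against 53.6% and 0.598 in promoter islands. A CpG ratio of 0.6 with 50% GC was passed by 41 members (4.004%), against 41.3% of promoter islands.

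The island with the most reads, RI831 (chr15:67004001-67010600), lay 61.4 kb upstream of St3gal1, which encodes a sialyltransferase that acts on glycoproteins. It held 1232 PA1-KO and 1315 WT reads, a ratio of 1.07 (0.989 to 1.16). The promoter assigned to St3gal1 held 5 PA1-KO and 2 WT reads, and whether RI831 is an unannotated start of that gene was not tested. RI529 (chr10:43459001-43469000), 77.0 kb from Gm9034, spanned 10000 bp with 958 PA1-KO and 733 WT reads, and its ratio of 1.49 (1.35 to 1.64) fell just short of the 1.5-fold limit. RI598 (chr11:24155201-24158800) lay 115 kb from the start of Bcl11a, a zinc finger factor needed for B lymphocyte development, and held 496 PA1-KO and 549 WT reads (1.03, 0.911 to 1.17). These 3 islands carried large signals in both libraries.

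Of the 12 islands with the most reads, 3 were called higher and 1 lower. RI111, 115 kb from the start of the cadherin gene Cdh26, held 373 PA1-KO and 271 WT reads (1.57, 1.34 to 1.84). RI939, 66.4 kb upstream of the sorting nexin gene Snx2, held 375 PA1-KO and 272 WT reads (1.57, 1.34 to 1.85). RI630, between Hdac9, a histone deacetylase gene, and 4921508M14Rik, held 334 PA1-KO and 247 WT reads (1.54, 1.31 to 1.83). These 3 calls sit just past the limit, and they were lost with the libraries scaled to total reads (1.45, 1.45 and 1.42). With the GC trend removed, RI111 stayed higher (1.54), and RI939 and RI630 were not called (1.40 and 1.36). RI49 was lower and is described with its cluster. Apart from the 3 islands described above, the remaining members of the 12 (RI44, RI526, RI640, RI644 and RI982) had ratios of 1.06 to 1.499.

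Taken over all 1024 members, PA1-KO and WT signal was close to equal. The members held 49079 PA1-KO and 52549 WT reads, a ratio of 1.07 (1.05 to 1.08), against 1.04 over all islands. The direction depends on the scaling, because the ratio was 0.984 when the libraries were scaled to total reads and 0.866 when scaled to background, that is to reads in neither islands nor promoters. The median log2 ratio of the members was 0.02 higher than that of all islands, a difference that a single scaling factor cannot change. Called higher were 62 members (6.05%), against 3.35% of all islands, and called lower were 44 (4.30%), against 5.39%. The remaining 918 passed in neither direction. Scaled to total reads, 34 members were higher and 76 lower, and scaled to background, 17 were higher and 149 lower, so the split between the directions follows the scaling. Intervals that exclude 1, with no limit on size, were found for 138 members (13.5%) and 21.3% of all islands, which hold more reads each.

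**Figure D2:**
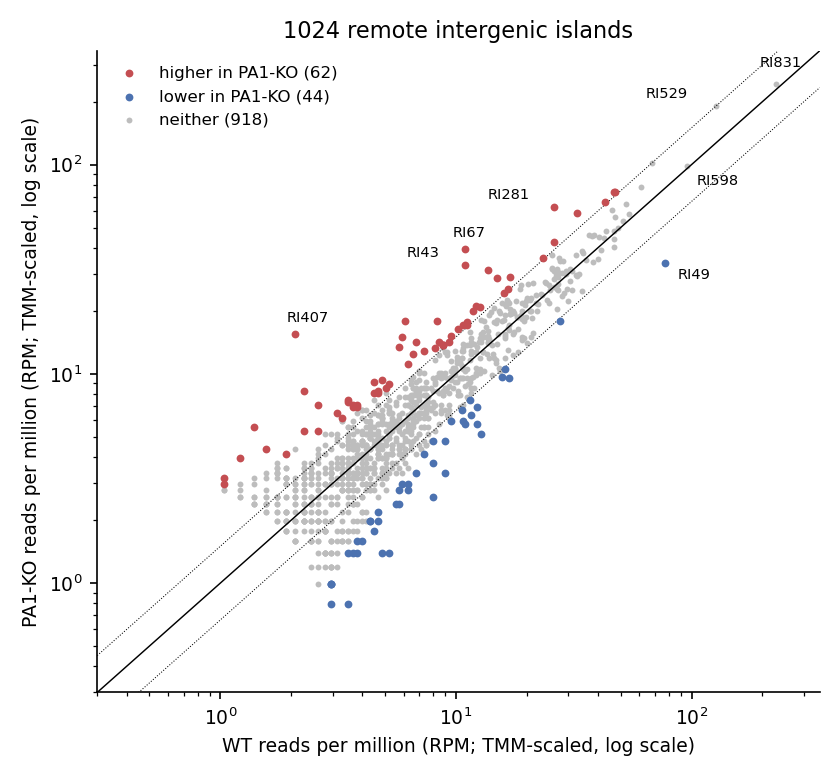
TMM-scaled reads per 1000000 nuclear reads (RPM) in the PA1-KO library (vertical) against the WT library (horizontal) for each remote island, both on log scales. The solid line marks equality and the dotted lines a 1.5-fold difference. The 62 islands higher in PA1-KO are red, the 44 lower are blue and the other 918 grey, RI407 has the highest ratio, and RI49 is the lower island with the most reads.

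Neighbouring classes gave similar counts. Among 3688 intergenic islands at 5 to 50 kb, 186 (5.04%) were higher and 181 (4.91%) lower, and among 4085 distal islands inside genes 278 (6.81%) were higher and 229 (5.61%) lower. Promoter islands differed in balance, with 137 of 12197 (1.12%) higher and 649 (5.32%) lower. With TMM scaling, higher calls outnumbered lower ones in remote islands, distal islands inside genes and, by 186 to 181, intergenic islands at 5 to 50 kb. No difference between the classes was tested.

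The ratio moved with base composition. Remote islands under 40% GC (n = 52) had a median log2 ratio of 0.45, and those at 40 to 45% (n = 231) one of 0.19. The median was 0.06 at 45 to 50% GC (n = 384), -0.11 at 50 to 55% (n = 249), -0.39 at 55 to 60% (n = 78) and -0.44 at 60% or more (n = 30). The other islands showed the same order, with medians of 0.39, 0.23, 0.13, 0.01, -0.15 and -0.43. These lie above the medians of the members in every group from 40% GC upward. Members called higher had a median GC of 45.2% and those called lower 53.0%. Across the 1024 members the Spearman coefficient between ratio and GC was -0.357, between ratio and reads 0.130, and between ratio and distance to a TSS -0.047. All these points come from the same 2 libraries, and what part base composition has in the calls was not tested.

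Read number moved with the ratio more weakly. Members with 20 to 29 reads had a median log2 ratio of -0.05, those with 30 to 49 reads -0.10, those with 50 to 99 reads -0.01, those with 100 to 199 reads 0.09 and those with 200 or more 0.13. The other islands lay below the members in each of these groups, at -0.16, -0.17, -0.13, -0.08 and 0.06. Higher calls were less frequent in members than in other islands of the same read group at low read numbers, and more frequent at high ones. The other islands include 12197 promoter islands, 1.12% of them higher, and the group of 200 or more reads has no upper limit. The other distal classes were not split by read number. At 20 to 29 reads 1.51% of members were higher, against 3.21% of other islands, and at 30 to 49 reads 2.07%, against 3.98%. At 100 to 199 reads 12.4% of members were higher, against 5.70%, and at 200 or more reads 14 of 121 (11.6%), against 1.71% of 11256. Lower calls at 200 or more reads were 1.65% of members and 1.36% of other islands. With the GC trend over all islands removed, 36 members were higher and 44 lower (3.52% and 4.30%, against 2.56% and 3.05% of all islands). Only 33 of these higher and 30 of these lower members were also called before that correction. With both trends removed, 44 were higher and 26 lower (4.30% and 2.54%, against 2.86% and 2.40%), of which 36 and 20 were also called before correction.

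**Figure D3:**
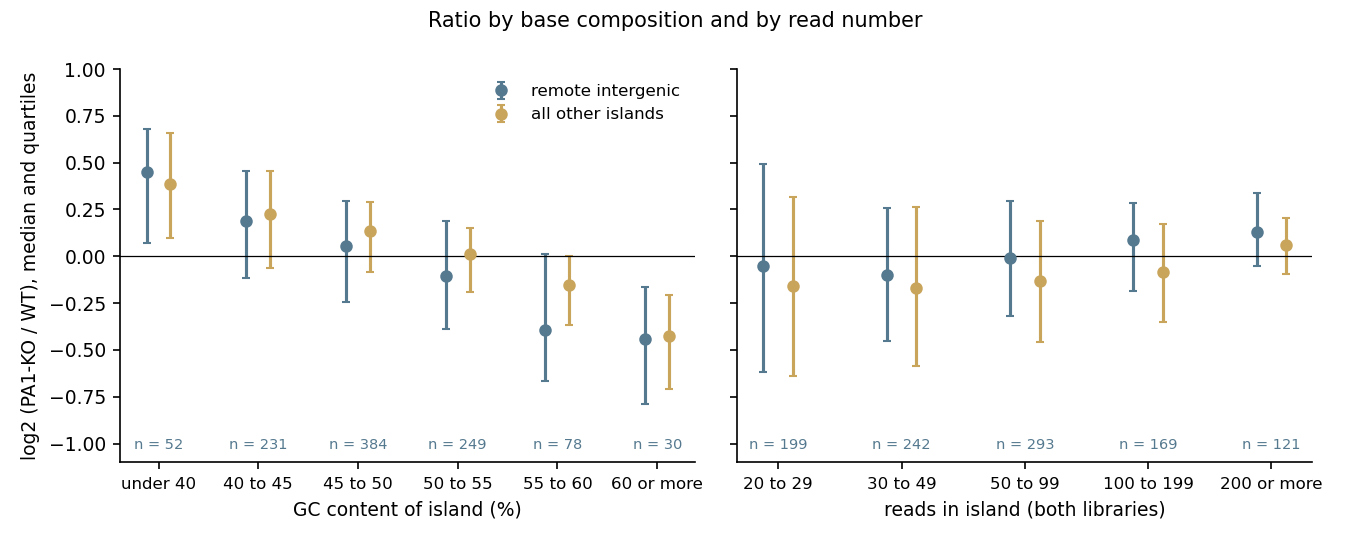
Median log2 ratio of PA1-KO over WT with quartiles, by GC content of the island (left) and by its reads in both libraries (right), for remote islands (blue-grey, n printed below) and all other islands (ochre). Both groups fall with GC content, and remote islands lie above the others at each read number. By GC content they lie above the others only under 40% and below them in every higher group.

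The 6 members with the strongest higher call kept it under all 6 scalings and trend corrections tried. They were picked for the highest lower bounds. The largest log2 shift by a scaling was -0.30, too small to remove any of these calls. RI407 (chr8:70681001-70682400) held 78 PA1-KO and 12 WT reads, a ratio of 7.42 (4.02 to 14.97). It lies 95.5 kb upstream of Psd3, which encodes an exchange factor for ARF GTPases, whose promoter held 144 PA1-KO and 160 WT reads. RI67 (chr1:166809601-166813000) held 199 PA1-KO and 63 WT reads (3.61, 2.70 to 4.86). It lies 54.4 kb from the start of Xcl1, the chemokine lymphotactin of T and NK cells, whose promoter held 4 PA1-KO reads and 1 WT read. In RI67 and RI407 the island was high in PA1-KO while the nearest promoter was similar in both libraries or nearly empty.

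RI281 (chr6:15794001-15796400), 117 kb from the start of Mdfic, a regulator of transcription with a domain shared with the MyoD family inhibitor, held 317 PA1-KO and 150 WT reads (2.41, 1.98 to 2.95). The Mdfic promoter held 220 PA1-KO and 301 WT reads. RI318 (chr6:108668601-108670200), 58.5 kb from the start of Bhlhe40, a helix-loop-helix repressor induced in activated lymphocytes, held 90 PA1-KO and 35 WT reads (2.93, 1.97 to 4.47), with 333 PA1-KO and 373 WT reads at the promoter. The other 2 of the 6, RI43 and RI46, belong to the cluster beside Cacna1e.

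The 6 strongest lower calls also held under all 6 alternatives. The other scalings lower every ratio, so only the trend corrections could have removed these calls. RI49 is the strongest by reads. RI331 (chr7:71003401-71004000), 66.1 kb from the start of Klf13, a Krüppel-like transcription factor, held 26 PA1-KO and 74 WT reads (0.401, 0.246 to 0.635). RI312, 124 kb from Rybp, a subunit of Polycomb repressive complex PRC1, held 13 PA1-KO and 46 WT reads (0.323, 0.160 to 0.607). RI414, 71.7 kb upstream of Smpd3, a neutral sphingomyelinase gene, held 17 PA1-KO and 52 WT reads (0.373, 0.202 to 0.656). RI272, 76.4 kb from Usp12, a deubiquitinase gene, held 7 PA1-KO and 30 WT reads (0.266, 0.0987 to 0.619), and RI433 is in the cluster beside Tomm20. These 6 had 51.0% to 60.3% GC, and the 6 strongest higher members had 38.4% to 47.5%.

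Averaged around their position of most reads, the members had 2.22 reads per 1000000 nuclear reads (RPM, after scaling) per 100 bp in PA1-KO and 2.20 in WT. At 1 kb upstream the means were 0.135 in PA1-KO and 0.111 in WT. Intergenic islands at 5 to 50 kb had 2.65 in PA1-KO and 2.68 in WT at the same position. The 62 members called higher had 3.13 in PA1-KO and 1.89 in WT, and the 44 called lower had 1.25 in PA1-KO and 2.44 in WT, which follows from how they were called.

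**Figure D4:**
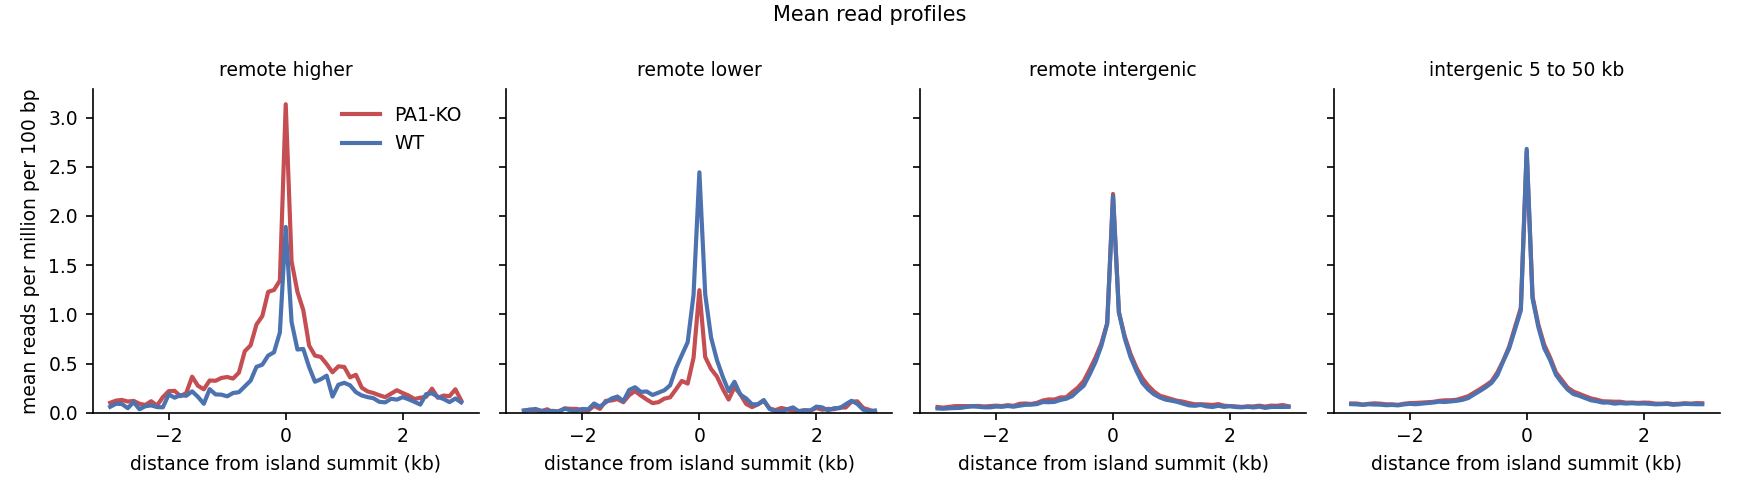
Mean TMM-scaled RPM per 100 bp around the position with most reads, for PA1-KO (red) and WT (blue), in remote islands called higher, called lower, all remote islands, and intergenic islands at 5 to 50 kb. The curves of all remote islands nearly coincide at the centre, at 2.22 in PA1-KO and 2.20 in WT. At 1 kb upstream they stand at 0.135 in PA1-KO and 0.111 in WT.

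The sequence beside remote islands held more PA1-KO reads relative to the promoter scale than the islands did. At 5 to 15 kb on either side, outside other islands, there were 0.981 PA1-KO and 0.948 WT reads per kb, a scaled ratio of 1.18 (1.16 to 1.20). Reads in neither islands nor promoters numbered 1344762 in PA1-KO and 1246419 in WT, so a PA1-KO excess was not particular to these flanks. Islands rose 60.2-fold over these flanks in PA1-KO and 66.7-fold in WT. The quotient of these enrichments was 0.903, and 0.919 without chromosome Y. For intergenic islands at 5 to 50 kb the enrichments were 57.8-fold in PA1-KO and 58.6-fold in WT (quotient 0.987), and for distal islands inside genes 38.5-fold and 38.3-fold (1.01). Whether the flank reads come from nonspecific chromatin or from the mark was not tested.

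Remote islands were also called in each library alone, with windows of 5 or more reads and islands of 10 or more. The PA1-KO library gave 983, of which 845 (86.0%) overlapped one called in WT. The WT library gave 1106, of which 845 (76.4%) overlapped one called in PA1-KO. The same overlap was not computed for the other islands, so whether these shares are particular to remote islands was not tested.

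Remote islands often lay near each other. With members chained where neighbours are within 50 kb, 569 (55.6%) fell in 190 clusters and 455 stood alone. The clusters comprised 105 pairs, 62 of 3 or 4 islands, and 23 of 5 or more that together held 158 islands. The distance from a member to the next on the chromosome had a median of 262 kb, and 117 of 1003 such distances were within 5 kb, so parts of a single broad domain can count as several islands. Of the members called higher 42 of 62 (67.7%) were clustered, and of those called lower 17 of 44 (38.6%). At least 2 higher members occurred in 7 clusters, at least 2 lower members in 0, and both directions in 4.

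The largest cluster, of 13 islands over 60.4 kb on chromosome 1, lies between Ralgps2, a guanine nucleotide exchange factor for Ral GTPases, and 1700057K13Rik. It held 866 PA1-KO and 757 WT reads, a summed ratio of 1.31 (1.18 to 1.44). Of these, RI64 was higher with 297 PA1-KO and 189 WT reads (1.79, 1.49 to 2.16), a call lost when scaled to background (1.46). RI60 was higher with 83 PA1-KO and 59 WT reads (1.61, 1.14 to 2.28). Its call was lost when scaled to total reads (1.48) and with the GC trend removed (1.498). RI56 had the lowest ratio of the cluster and held 7 PA1-KO and 17 WT reads (0.470, 0.165 to 1.19). The 5 islands of this cluster with the most reads lay above 1, and the other 8 lay below 1 with intervals that include it.

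On chromosome 8, 11 islands over 118 kb lie between Irf2bp2, a corepressor gene, and Tomm20, a receptor of the mitochondrial import machinery. They held 271 PA1-KO and 383 WT reads, a summed ratio of 0.808 (0.689 to 0.946). RI433 was the lower member, with 7 PA1-KO and 28 WT reads (0.285, 0.105 to 0.669). The remaining 10 islands had ratios of 0.481 (RI425) to 1.40 (RI424), each with an interval that includes 1. The 10 islands of the fourth cluster, on chromosome Y, held 288 PA1-KO and 268 WT reads, of which 57.3% (median) mismatched the reference.

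The 10 islands between F930017D23Rik and Gm9034 span 92.4 kb on chromosome 10 and held the most reads of the 4 clusters, 1668 PA1-KO and 1467 WT, a summed ratio of 1.30 (1.21 to 1.39). RI529, described above, held most of these reads. RI526 held 328 PA1-KO and 305 WT reads (1.23, 1.05 to 1.44). RI530 was the higher member, with 105 PA1-KO and 73 WT reads (1.64, 1.21 to 2.24). It was not called when scaled to background (1.33) or with the GC trend removed (1.498). RI527, 62 PA1-KO and 101 WT reads, lay below 1 (0.701, 0.502 to 0.971) without reaching the limit. The protein-coding promoters on both sides held at most 8 reads in either library.

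The 8 islands between Cacna1e, a voltage-gated calcium channel gene, and Ier5, an immediate early response gene, differed most from one another. Over 99000 bp they held 1060 PA1-KO and 1043 WT reads, a summed ratio of 1.16 (1.06 to 1.26). RI43 held 167 PA1-KO and 63 WT reads (3.03, 2.25 to 4.11). RI45 held 76 PA1-KO and 34 WT reads (2.55, 1.68 to 3.94), and RI46 42 PA1-KO and 13 WT reads (3.69, 1.94 to 7.49). RI44, the strongest, held 515 PA1-KO and 392 WT reads (1.499, 1.31 to 1.71), just under the limit.

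At the Ier5 side of the same cluster RI49 (chr1:156729401-156732200) held 172 PA1-KO and 444 WT reads, a ratio of 0.442 (0.369 to 0.528). It is the lower island with the most reads of all members. The remaining islands, RI42, RI47 and RI48, had ratios of 0.726, 1.17 and 1.07 with intervals that include 1. The Cacna1e promoter held 36 PA1-KO and 59 WT reads (0.696, 0.447 to 1.07). Islands up to 3.69-fold higher and an island at 0.442 therefore stood within 99000 bp of each other.

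**Figure D5:**
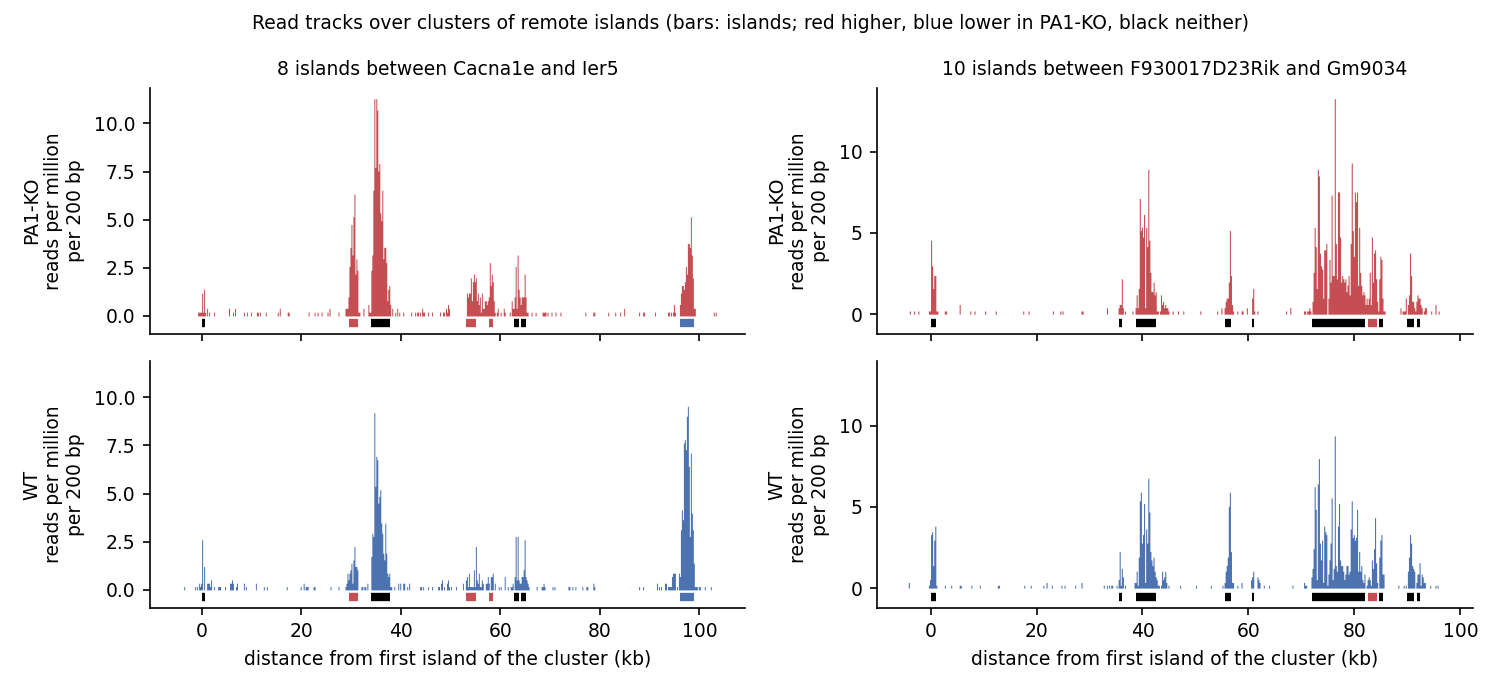
TMM-scaled RPM per 200 bp in PA1-KO (red, above) and WT (blue, below) across the clusters between Cacna1e and Ier5 (left) and between F930017D23Rik and Gm9034 (right), by distance from the first island (kb). Bars under each track mark islands, red if higher, blue if lower in PA1-KO and black if neither, and the island at the right end of the left cluster is RI49, with 172 PA1-KO and 444 WT reads.

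Ratios of adjacent members correlated weakly over all pairs, and more where both held many reads. What part counting error has in these coefficients was not tested. Over 379 pairs of adjacent members in a cluster the Spearman coefficient between their ratios was 0.170, and over the 38 pairs with 100 or more reads in both it was 0.416. Their GC contents also correlated (0.348), and adjacent islands share libraries and local composition. The ratio of a member and that of its nearest promoter, for 751 members whose nearest promoter held 50 or more reads, had a coefficient of 0.020. Of 81 called members with such a promoter, 4 lower and 5 higher members had a called promoter, and the promoter was lower each time. RI393 and RI394 share the promoter of Lonrf1 among these. Over all 751 members the nearest promoter was lower for 50 and higher for 7.

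By gene, the rule of nearest start gives a position and not a target. Apart from Gm3395 on chromosome Y, the gene nearest to most members was Ralgps2 with 10, followed by Tomm20 with 10 and Tbl1xr1 with 9. Tbl1xr1 encodes a component of the NCoR corepressor complex. Its 9 members held 778 PA1-KO and 640 WT reads (1.39, 1.25 to 1.54), and its promoter held 117 PA1-KO and 153 WT reads (0.873, 0.680 to 1.12). Within this cluster RI131 was higher with 158 PA1-KO and 79 WT reads (2.28, 1.73 to 3.03), and RI128 with 145 PA1-KO and 86 WT reads (1.92, 1.46 to 2.54). Jarid2, a cofactor of Polycomb repressive complex PRC2, had 9 members with 356 PA1-KO and 407 WT reads (0.998, 0.863 to 1.15), 0 of them called.

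Gm9034 and Cacna1e, described above, had 8 each. Gm9887 and Foxo1 had 6 each, with 779 PA1-KO and 810 WT reads (1.10, 0.994 to 1.21) and 513 PA1-KO and 470 WT reads (1.25, 1.10 to 1.41). None of the members near Jarid2 and Gm9887 passed in either direction.

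Genes of B cell identity and activation were among the nearest genes. Of 35 annotated identity genes, 7 were nearest to 24 members, against 595 of 22225 protein-coding genes (2.68%). Of 38 activation and NF-kB genes, 6 (15.8%) were nearest to 16 members. Lists of other lineages were close to these shares, with 5 of 26 T and NK cell genes (19.2%), 9 of 50 developmental transcription factor genes (18.0%) and 2 of 16 myeloid genes (12.5%). Of 11 plasma cell genes and of 10 genes of the PA1-PTIP-MLL3/4 complex, 0 were nearest to a member. The length of gene-free sequence beside the genes was not matched between the lists.

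Among the 24 members at identity genes, 2 were higher and 1 lower, with a median log2 ratio of 0.12. Over all 1024 members 6.05% were higher and 4.30% lower, with a median of 0.02, so these counts are near the share over all members. Foxo1, the factor required for B cell development and recombinase expression, had RI140 at 69.5 kb with 244 PA1-KO and 249 WT reads (1.12, 0.934 to 1.34). RI144, 133 kb from the Foxo1 start, was higher with 106 PA1-KO and 70 WT reads (1.73, 1.27 to 2.37). RI740, 438 kb upstream of Mef2c, a factor of B cell proliferation after antigen receptor signals, was higher with 46 PA1-KO and 26 WT reads (2.02, 1.22 to 3.40). These calls at RI144 and RI740 were lost when scaled to background (1.40 and 1.64).

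RI867, 203 kb upstream of Runx1, a blood cell transcription factor, was lower with 7 PA1-KO and 20 WT reads (0.399, 0.143 to 0.983), a call lost with the level trend removed (0.420). Near Ets1, a lymphoid ETS factor, RI446 held 70 PA1-KO and 62 WT reads (1.29, 0.902 to 1.84), and near Runx3 RI224 held 51 PA1-KO and 73 WT reads (0.797, 0.546 to 1.16). As over all members, most islands at identity genes passed in neither direction.

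Among the 16 members at activation genes, 3 were higher and 1 lower, with a median log2 ratio of 0.27, beside 6.05% higher, 4.30% lower and a median of 0.02 over all members. Upstream of Tnfaip3, which encodes A20, an inhibitor of NF-kB, RI508 was higher with 72 PA1-KO and 54 WT reads (1.52, 1.05 to 2.21) and RI507 was lower with 35 PA1-KO and 71 WT reads (0.563, 0.364 to 0.855). The call at RI508 was lost when scaled to total reads (1.40) and with the GC trend removed (1.42). The other scalings lower every ratio, so the lower call at RI507 could not be lost under them. RI507 stayed lower with the level trend removed (0.569) and with the GC trend removed (0.540). The Tnfaip3 promoter held 657 PA1-KO and 623 WT reads. Upstream of Il6, the cytokine gene, RI230 was higher with 42 PA1-KO and 27 WT reads (1.78, 1.07 to 2.99). Its call was lost when scaled to total reads (1.64) and with the GC trend removed (1.56). The Il6 promoter was lower, with 109 PA1-KO and 208 WT reads (0.598, 0.470 to 0.758). Of the other islands nearest to Il6, RI229 held 14 PA1-KO and 25 WT reads (0.639, 0.307 to 1.28) and RI231 held 13 PA1-KO and 12 WT reads (1.24, 0.520 to 2.96). The Il6 islands thus lay on both sides of 1, and RI230 was the only one of them called.

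RI707, 178 kb from the start of Cd83, an activation marker, was higher with 63 PA1-KO and 38 WT reads (1.89, 1.25 to 2.91), and its neighbour RI706 held 72 PA1-KO and 67 WT reads (1.23, 0.867 to 1.74). RI34, 240 kb upstream of the chemokine receptor gene Cxcr4, held 99 PA1-KO and 89 WT reads (1.27, 0.944 to 1.71). RI829, 444 kb upstream of Myc, the growth regulator, held 36 in each library (1.14, 0.699 to 1.86), and RI171, near S1pr1, which encodes the lymphocyte egress receptor, held 68 PA1-KO and 71 WT reads (1.09, 0.772 to 1.55).

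Islands also lay near genes whose own promoters, counted at GENCODE vM1 starts alone, carried few reads. Whether such an island is an unannotated start of the gene was not tested. The promoter of Klf12, a Krüppel-like factor gene, held 0 PA1-KO reads and 1 WT read, while RI794, 136 kb upstream, held 127 PA1-KO and 180 WT reads (0.805, 0.637 to 1.02) and RI793 was higher with 35 PA1-KO and 22 WT reads (1.82, 1.04 to 3.25), a call lost when scaled to total reads (1.68). RI611, 280 kb from the start of the cartilage factor gene Sox9, was lower with 19 PA1-KO and 46 WT reads (0.471, 0.261 to 0.821), and the Sox9 promoter held 3 PA1-KO and 13 WT reads. RI582, between Ifng and Dyrk2, held 26 PA1-KO and 27 WT reads (1.10, 0.616 to 1.96) while the Ifng promoter held 0 PA1-KO reads and 1 WT read.

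The promoters of Lef1 and Sox5 carried more reads, 119 PA1-KO and 185 WT reads for Lef1 and 157 PA1-KO and 212 WT reads for Sox5. RI184, upstream of Lef1, a TCF family factor of lymphocytes, held 152 PA1-KO and 169 WT reads (1.03, 0.819 to 1.29). RI183, farther upstream of Lef1, was lower with 21 PA1-KO and 42 WT reads (0.571, 0.321 to 0.986), but not with either trend removed (0.583 and 0.730). RI324, near Sox5, was higher with 86 PA1-KO and 64 WT reads (1.53, 1.10 to 2.15). This call was lost when scaled to total reads (1.42) and with the GC trend removed (1.37). RI325 held 127 PA1-KO and 145 WT reads (0.9996, 0.781 to 1.28).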

How the data were processed

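Reads were H3K4 ChIP-seq reads of 25 bases from 1 PA1-KO and 1 PA1-WT B cell library. The deposited files give positions of mapped reads and no normalized value. Per the submitters' processing notes, the build was mm9 and SICER was used, with no role or version stated. The aligner and its settings were not given in the sources used here. Among 11098 reads with 1 mismatch, 100% of the descriptor letters matched the NCBIM37 base when positions were read as 1-based.

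Read 5′ ends were shifted by 75 bp towards the fragment centre. Promoter counts took reads within 1 kb of 1 TSS per protein-coding gene, the one with most reads. The TMM scale (trims of 30% and 5%) came from 12186 of 22367 promoters with 50 or more reads. The 200 bp windows of 9 or more reads, joined over up to 200 bp, gave the islands. Ratios carry Clopper-Pearson 95% intervals, which cover counting error only, since reads amplified by PCR carry no molecular identifiers. Overlaps were of at least 1 bp. PA1 was matched to 2900092E17Rik as a synonym in the RefSeq table of GRCm38.p6. The script was tested on simulated data. Python 3.11.15, NumPy 2.4.6, pandas 2.3.3, SciPy 1.17.1 and Matplotlib 3.10.9 were used.

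The members and gene lists were chosen with earlier results of these data known. Named by rule were the 12 members with most reads, the 6 higher and 6 lower whose bound nearest 1 was farthest from it, the 3 farthest from a TSS, the 4 largest clusters, the 10 genes nearest to most members, the thresholds' neighbours and, per list, up to 10 members by reads. The cluster beside Cacna1e, RI45 and RI128 and RI131 beside Tbl1xr1 lay outside that rule and were named after their values were seen. Called list members beyond the first 10 were named in the same way. A few genes that the rule or the marker lists would name are not reported here. Alternatives were other scalings, window, gap, read and distance settings, no shift, thinning of the WT reads, and removal of trends with level or GC (medians in 20 bins over all islands).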

Additional observations from a re-analysis of the deposited data

How the results depend on the processing

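Of the 81 values recomputed under an alternative for the island number, the calls, the ratios, the clustering and the overlap, 58 stayed close to those reported. Scaled to total reads, 34 members were higher and 76 lower and the summed ratio turned to 0.984. Scaled to background reads, 17 were higher and 149 lower and it turned to 0.866, as that scaling shifts every log2 ratio by -0.30 (total reads: -0.12). With the level trend removed the summed ratio was 1.05 and the median log2 difference from all islands 0.12, with 0.5 added to each read number. With the GC trend removed 36 were higher, the summed ratio was 1.04 and the difference -0.081. With both removed, an alternative chosen after seeing the data, 26 were lower. A minimum of 40 reads gave 27 lower members, a ratio of 1.08 and 46.6% clustered. With protein-coding starts only, 1710 islands qualified, 96 of them higher, 87 lower and 58.9% clustered. Over 100 kb, 384 qualified, with 22 higher and 13 lower, because fewer islands enter. With 7 reads per window and a minimum of 20, 72.7% of WT islands overlapped one called in PA1-KO.

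A stricter window threshold for the pooled islands, a wider gap, no fragment shift, distance from the island edge, thinned WT reads, and leaving out islands with over 20% mismatched reads (also chosen after seeing the data), moved none of the values for the pooled islands beyond their interval or 1.5-fold. Of 780 values for 130 named members, 43 lost a call, 15 gained one and 16 moved out of their interval. Reversals were counted for called members alone and numbered 0, and no scaling shift was large enough to reverse a call. Members without a call could cross 1 uncounted, as RI22 did when scaled to background (1.17 to 0.952). Except where stated, the causes of these shifts were not tested. The alternative without repeat-rich islands was not run, since the reference does not mark repeats. No paired analysis was possible because each genotype has 1 library. Depth limits what can be called: 441 of 1024 members hold under 50 reads in both libraries together.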

Other observations

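At single bases within the members, 1 position was found where 3 or more PA1-KO reads, and at least 75% of those covering it, mismatched the reference while 3 or more WT reads covered it with 0 mismatches. It lies in RI925, a member called higher in PA1-KO. In the opposite sense, with mismatches in the WT reads alone, 0 positions were found. Of 1024 members, 18 had a plus-strand share outside 30 to 70%.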
